A study of Mus musculus with 1104 samples.

Results

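Lipoprotein lipase and the proteins that move, fold or inhibit it were followed through a feeding experiment in mice, over 3 fat depots, 2 muscles, the liver and the small intestine. The members are 6 genes, Lpl, Gpihbp1, Lmf1, Angptl4, Angptl8 and Lipc, taken by name from the 20646 genes of the count table. All mice were wild type C57BL/6 males that received a high-fat diet with most of its energy from fat (D12492, 60 kcal% fat) from 8 weeks of age until dissection. RNA was sequenced from groups of 6 mice at 14 time points from 0 days, the start of the diet, to 12 weeks, and epididymal fat was also taken at 16 and 20 weeks. Up to 6 mice shared a cage, and the feeding state at dissection is not given in the sources used here. Every group after 0 days was fed the diet, and no animal on another diet of the same age is among the samples, so that effects of diet, age and day of dissection cannot be told apart.

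Lipoprotein lipase, the product of Lpl, is made by fat and muscle cells and splits the triglycerides of chylomicrons and very low density lipoproteins at the capillary wall, so that the released fatty acids enter the tissue. Lmf1 encodes a membrane protein of the endoplasmic reticulum that the enzyme needs to fold and assemble, and Gpihbp1 encodes the endothelial protein that carries it across the capillary wall and holds it there. Angptl4 encodes a secreted inhibitor of the enzyme whose RNA is known to rise on fasting and with fatty acids, and Angptl8 encodes a small secreted protein of liver and fat that rises with feeding. Lipc encodes hepatic lipase, a relative of lipoprotein lipase that acts in the liver sinusoids on remnant particles and high density lipoproteins.

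In GRCm38 the genes lie on 4 chromosomes. Lpl (ENSMUSG00000015568) occupies chromosome 8, 68880491 to 68907448, plus strand, Gpihbp1 (ENSMUSG00000022579) chromosome 15, 75596628 to 75599481, plus strand, and Lmf1 (ENSMUSG00000002279) chromosome 17, 25579085 to 25662826, plus strand. Angptl4 (ENSMUSG00000002289) occupies chromosome 17, 33773750 to 33781830, minus strand, Angptl8 (ENSMUSG00000047822) chromosome 9, 21835510 to 21837347, plus strand, and Lipc (ENSMUSG00000032207) chromosome 9, 70798128 to 70952226, minus strand. Angptl8 lies inside Dock6 on the opposite strand, and Lipc overlaps the predicted genes Gm32017 and Gm3436 on the opposite strand and Gm25149 on its own. The libraries mark strand, but the strand setting of the counting is not given in the sources used here. Values of Angptl8 and of low Lipc may therefore hold reads of these neighbours. The principal transcripts run from 825 bases in Gpihbp1 to 4115 bases in Lpl.

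RefSeq start windows (GRCm38.p6) were found for 3 of the 6 members, Angptl8, Lipc and Lmf1, and were not found for Lpl, Gpihbp1 and Angptl4. The windows of Angptl8 and of an inner start of Lipc are shown because both hold close copies of GGTCA, the letters of a nuclear receptor half-site, searched on both strands within the 250 bases before the start. Capitals mark each copy, which reads TGACC where it lies on the other strand.
Angptl8 (chr9:21835260-21835509, plus strand): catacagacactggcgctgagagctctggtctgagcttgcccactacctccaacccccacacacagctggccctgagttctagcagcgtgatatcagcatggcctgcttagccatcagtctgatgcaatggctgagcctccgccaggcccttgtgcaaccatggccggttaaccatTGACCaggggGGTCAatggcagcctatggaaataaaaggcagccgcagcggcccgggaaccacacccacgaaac
Lipc (chr9:70934809-70935058, minus strand): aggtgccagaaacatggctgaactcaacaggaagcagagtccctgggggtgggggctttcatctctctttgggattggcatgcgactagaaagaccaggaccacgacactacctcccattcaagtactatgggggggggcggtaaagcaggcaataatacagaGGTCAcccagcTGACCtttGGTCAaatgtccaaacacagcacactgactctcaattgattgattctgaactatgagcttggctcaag
In Angptl8 the 2 copies start 74 and 64 bases before the transcription start and lie 5 bases apart. In Lipc the 3 copies start 87, 76 and 68 bases before that start, with gaps of 6 and 3 bases. No copy was found before the outer Lipc start or before Lmf1. Of the 32851 windows of this length, 35.24% held at least 1 copy, 8.158% at least 2 and 1.513% at least 3. These are matches of letters; binding was not measured.

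The 600 libraries of these 7 organs held between 8553245 and 27036098 counted reads, with a median of 13508059. Expression is given as CPM, the counted reads of a gene relative to the library total, after scaling by edgeR's TMM factors within each organ. Marker genes fitted the labelled organs: the summed level of 8 skeletal muscle genes was 114419 to 275350 CPM in gastrocnemius, that of 8 hepatocyte genes was 85934 to 122928 CPM in liver, and that of 8 enterocyte genes was 24169.9 to 37486 CPM in small intestine. The 6 brown adipocyte genes summed to 7420.3 to 47043 CPM in brown fat and to a median of 56.1 CPM in epididymal fat. Some libraries also held transcripts of neighbouring tissue, among them pancreatic acinar genes in the small intestine (8 genes, 90.2 to 46866 CPM), muscle genes in inguinal fat (27.3 to 30205 CPM) and B cell and lymph node genes in inguinal fat (7.16 to 5133 CPM). In such whole-tissue RNA, fewer cells of a type and less RNA per cell cannot be told apart.

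A part of the libraries stood apart in how long and short transcripts were represented, and Lpl and Gpihbp1, the longest and the shortest member, moved with it. Length balance is defined here as the median log2 deviation, from the organ's median library, of the 25% of genes with the longest transcripts minus that of the 25% with the shortest. The members were left out of it. A value under -0.5 was found in 4 of 84 libraries of brown fat, 12 of 96 of epididymal fat, 13 of 84 of inguinal fat, 13 of 84 of gastrocnemius and 25 of 84 of soleus, and in none of the 84 of liver or the 84 of small intestine. In soleus, Lpl had a lowest, median and highest level of 359, 745 and 3681 CPM in the 25 libraries of low balance and of 1445, 2152 and 2737 CPM in the other 59. Gpihbp1 was 72.9, 140.2 and 378 CPM in the same 25 and 35.5, 53.4 and 73.2 CPM in the 59. The medians of Lpl were thus lower and those of Gpihbp1 higher at low balance, and in gastrocnemius the medians were 385 against 675 CPM for Lpl and 50.5 against 31.1 CPM for Gpihbp1. The threshold was set after the data were seen. Groups that hold such a library, at the time tested or at 0 days, gave calls of members, and without these libraries 3 of 8 of those calls passed in brown fat, 45 of 47 in epididymal fat, 19 of 19 in inguinal fat, 3 of 8 in gastrocnemius and 0 of 1 in soleus. The calls that did not pass are given with both values where the member is described. In epididymal fat the threshold removed 1 of 6 libraries at 0 days, but that whole group was shifted. Its median length balance was -0.355, against 0.063 at 12 weeks, so comparisons with 0 days there keep a difference in length balance. The 12-week calls of Gpihbp1 and Lmf1 in epididymal fat stood in all 10 alternatives, among them length balance as a covariate.

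**Figure D1:**
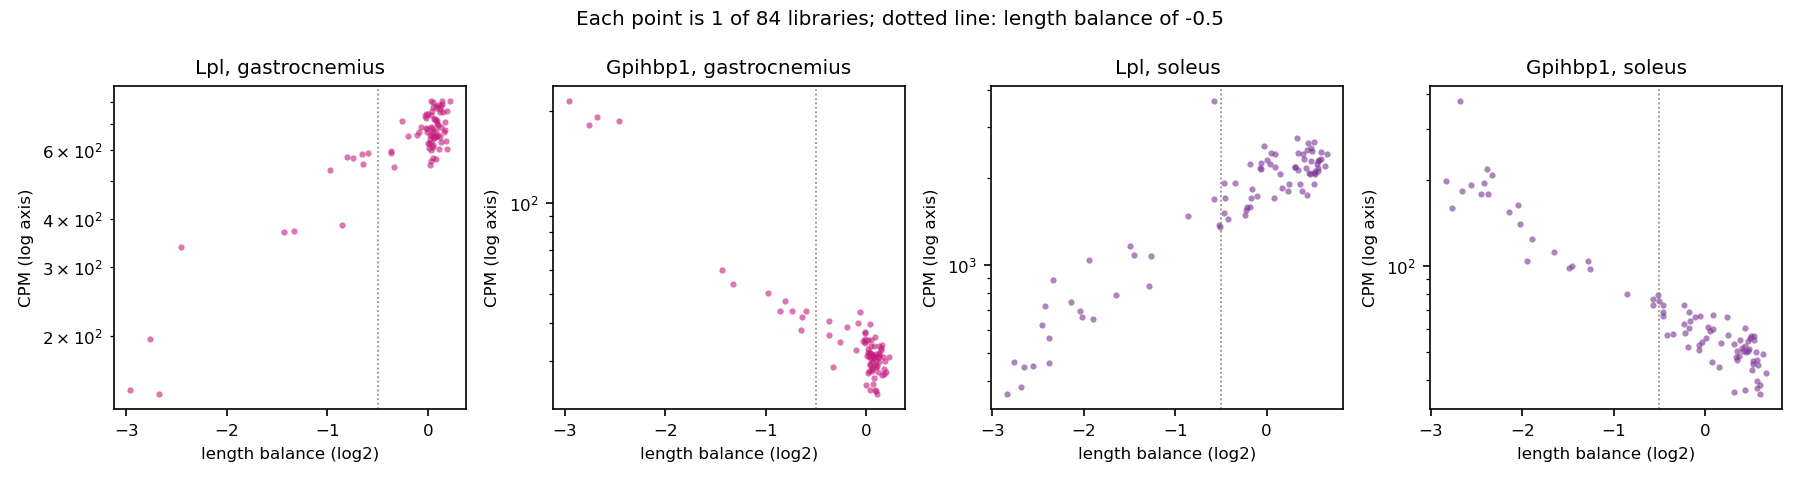
Level of Lpl and Gpihbp1 (CPM, log axis) against the length balance of each library in the 2 muscles; each point is 1 mouse and the dotted line marks the threshold of -0.5. In soleus the 25 libraries left of the line had a median of 745 CPM for Lpl against 2152 in the other 59, and of 140.2 against 53.4 for Gpihbp1.

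Before the diet, Lpl was a fat and muscle transcript, Lipc was a liver transcript, and the other members were spread over several organs. At 0 days Lpl was highest in epididymal fat (8423 ± 1616 CPM, SD, n = 6), followed by brown fat (7702 ± 987), inguinal fat (5710 ± 1497), soleus (1554 ± 856), gastrocnemius (760.2 ± 48.1), small intestine (28.8 ± 6.22) and liver (27.7 ± 9.21). Neighbouring organs in each such order were compared by an exact two-sided permutation test of log2(CPM + 1) over 6 mice against 6. Benjamini-Hochberg adjustment ran over the 36 neighbour pairs of the 6 genes, of which 19 passed 0.05. The smallest p this unpaired test can give is 0.00216. Libraries of 2 organs may come from the same mice, and the test did not pair them. For Lpl, epididymal and brown fat were not separated, with a log2 difference of 0.12 (exact permutation p = 0.403, adjusted 0.518), nor were the 2 muscles (0.74 (exact permutation p = 0.126, adjusted 0.196)) or intestine and liver (0.082 (exact permutation p = 0.725, adjusted 0.791)). The step from gastrocnemius down to the intestine was 4.70 (exact permutation p = 0.00216, adjusted 0.00649).

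Gpihbp1 followed the same first 5 organs, with 221 ± 29.7 CPM in epididymal fat, 116 ± 6.40 in brown fat, 105 ± 21.4 in inguinal fat, 84 ± 64.6 in soleus, 31.7 ± 2.68 in gastrocnemius, 14.8 ± 2.28 in liver and 0.854 ± 0.557 in the small intestine. Brown and inguinal fat, and inguinal fat and soleus, were not separated. Angptl4 was 514 ± 51.3 CPM in epididymal fat, 327 ± 57.2 in inguinal fat, 311 ± 26.2 in brown fat, 208 ± 34.2 in liver, 101 ± 46.7 in small intestine, 32.5 ± 17.5 in soleus and 8.03 ± 3.72 in gastrocnemius, and all neighbours differed except inguinal and brown fat. Its muscle levels were thus the lowest of the 7 organs.

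Angptl8 was 17.4 ± 4.21 CPM in brown fat, 17.7 ± 13.1 in liver, 5.01 ± 2.25 in inguinal fat, 3.42 ± 1.59 in epididymal fat and 1.97 ± 0.498 in small intestine, and 0.224 ± 0.104 in gastrocnemius and 0.165 ± 0.177 in soleus. Only liver against inguinal fat and small intestine against gastrocnemius were separated in this order. Lipc reached 176 ± 21.5 CPM in liver and no more than 0.418 in any other organ at 0 days, and only the step from liver down, 7.06 (exact permutation p = 0.00216, adjusted 0.00649), passed. Lmf1 was the most even member, from 42.5 ± 5.76 CPM in brown fat, 34.8 ± 3.35 in liver, 28.2 ± 3.12 in epididymal fat, 22.5 ± 2.45 in inguinal fat and 16.0 ± 9.48 in soleus to 8.25 ± 0.949 in gastrocnemius and 8.17 ± 0.855 in small intestine. Inguinal fat and soleus, and gastrocnemius and small intestine, were not separated for Lmf1. The order depended on the scaling. With TMM factors computed over all 42 libraries of 0 days together, brown fat stood above epididymal fat and liver above small intestine for Lpl, and soleus above inguinal fat for Gpihbp1. For Angptl4, brown fat and liver then stood above inguinal fat, and for Angptl8 and Lmf1 liver stood above brown fat. Soleus stood above both white depots for Lmf1 on that scaling, and Lipc and Gpihbp1 kept liver and epididymal fat, respectively, as their highest organ.

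Between genes, levels can be compared only per transcript length. Per kilobase of principal transcript, epididymal fat at 0 days held 2047 ± 393 CPM of Lpl, 267 ± 36.0 of Gpihbp1, 155 ± 15.5 of Angptl4, 15.2 ± 1.68 of Lmf1 and 3.95 ± 1.84 of Angptl8. In liver, Lipc stood at 91.6 ± 11.2 CPM per kilobase, Angptl4 at 62.9 ± 10.3, Angptl8 at 20.4 ± 15.1, Lmf1 at 18.7 ± 1.80, Gpihbp1 at 17.9 ± 2.76 and Lpl at 6.73 ± 2.24. The lipase was thus the most abundant member per length in epididymal fat, and hepatic lipase in liver.

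On the diet the members moved in different directions in different organs: after 12 weeks Lpl was lower in brown fat, liver and small intestine and higher in inguinal fat, Gpihbp1 was lower in epididymal and higher in brown fat, Angptl4 was higher in both white depots, and Lipc was lower in liver. Changes were tested with edgeR's quasi-likelihood test on the counts of all libraries of an organ. Benjamini-Hochberg adjustment ran over all genes tested there, with a threshold of 0.05. Mice of different time points are different animals. The p-values set a difference between time points against the spread between mice of a time point. Cage was not part of the fits, so mice that shared a cage were taken as independent. At 12 weeks against 0 days, 4 of 6 members were called in epididymal fat, where 60.4% of all tested genes were called, 3 of 6 in inguinal fat (all genes 44.6%), 2 of 5 in brown fat (all genes 27.6%), 3 of 6 in liver (all genes 42%) and 4 of 5 in small intestine (all genes 38.9%). In the muscles 0 of 4 was called in gastrocnemius (all genes 5.94%) and 1 of 4 in soleus (all genes 3.88%). Members outside these denominators were too low to be tested: Lipc in brown fat, both muscles and small intestine, and Angptl8 in both muscles. In gastrocnemius, where edgeR called 0 members at 12 weeks, 1 (Angptl4) had an unadjusted p under 0.05, and DESeq2 called 0 and limma's voom 1. At 20 weeks 4 of 6 were called in epididymal fat (all genes 60.8%).

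One day of diet already moved several members. At 1 day 4 of 5 members were called in small intestine (all genes 23.5%), 2 of 6 in epididymal fat (all genes 19%), 1 of 6 in liver (all genes 9.65%). The test called 0 of 5 in brown fat (all genes 17.9%), 0 of 6 in inguinal fat (all genes 0.605%), 0 of 4 in gastrocnemius (all genes 0.321%) and 0 of 4 in soleus (all genes 0.252%). At 4 weeks the counts were 2 of 6 in epididymal fat (all genes 33.9%), 2 of 6 in inguinal fat (all genes 12.9%), 2 of 5 in brown fat (all genes 14.7%), 2 of 6 in liver (all genes 14.5%), 3 of 5 in small intestine (all genes 40.4%), 1 of 4 in gastrocnemius (all genes 7.74%) and 0 of 4 in soleus (all genes 1.05%). Where edgeR called 0 members, an unadjusted p under 0.05 was found for 0 in brown fat, 1 (Angptl4) in inguinal fat, 1 (Angptl4) in gastrocnemius and 0 in soleus at 1 day, and for 0 in soleus at 4 weeks. DESeq2 called 0 in each of these, and limma's voom called 1 in brown fat, 2 in inguinal fat and 0 in the others. Tested for any difference between time points, 6 of 6 members varied in epididymal fat (all genes 90.8%), 3 of 6 in inguinal fat (65%), 4 of 5 in brown fat (65.7%), 3 of 6 in liver (57.5%), 4 of 5 in small intestine (68.6%), 2 of 4 in gastrocnemius (37.1%) and 1 of 4 in soleus (6.75%). Of these, Lipc in epididymal fat, with a mean of 0.675 CPM, was lost with voom.

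**Figure D2:**
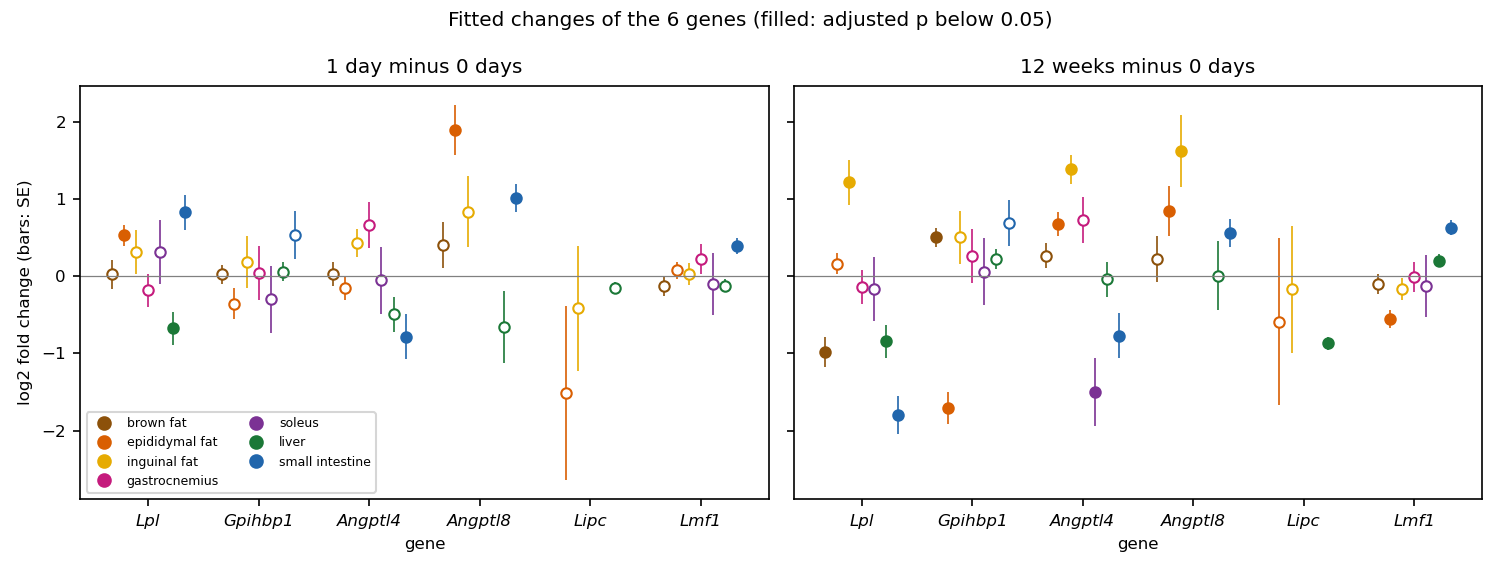
Fitted log2 change of each member at 1 day (left) and 12 weeks (right) against 0 days, with 1 point per organ where the member was tested, bars for the SE, and filled points where the adjusted p was below 0.05. At 12 weeks the lowest called value was Lpl in small intestine (-1.80) and the highest Angptl8 in inguinal fat (1.63).

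Lpl took 3 courses in the 3 fat depots: it fell in brown fat, rose early in epididymal fat, and rose late in inguinal fat. In brown fat its level at 0 days was 7702 ± 987 CPM (SD, n = 6), and means of 7849.6 ± 1526 at 1 day, 7453 ± 1122 at 3 days, 7144 ± 1858 at 1 week, 6639 ± 1399 at 10 days, 5535 ± 1794 at 2 weeks and 5714 ± 2196 at 3 weeks followed. From 4 weeks on it was 5034 ± 1074 at 4 weeks, 4158 ± 459 at 5 weeks, 5206 ± 1048 at 6 weeks and 3774 ± 749 at 7 weeks. From 8 weeks it was 3727 ± 431 at 8 weeks, 4275 ± 669 at 10 weeks and 3907 ± 273 at 12 weeks. At 0 days the lowest, median and highest mouse had 6306, 7604 and 8862 CPM, and at 12 weeks 3553, 3962 and 4209.5 CPM. All 6 mice at 12 weeks lay below all 6 at 0 days, and the same held at 4 weeks. The log2 change was -0.61 ± 0.19 (SE, adjusted p = 0.0206) at 4 weeks and -0.98 ± 0.19 (SE, adjusted p = 4.57e-05) at 12 weeks. Lpl passed the test as lower at 7 of 13 time points. At 12 weeks in brown fat, 5 of 10 general adipocyte genes and 3 of 6 brown adipocyte genes were also lower, among them the adipocyte hormone gene Adipoq with -0.90 ± 0.16 (SE), and the part of this in the change of Lpl was not tested.

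In epididymal fat Lpl rose within a day. From 8423 ± 1616 CPM at 0 days it went to 12208 ± 1925 at 1 day, 14907 ± 2150.1 at 3 days, 12437 ± 1621 at 1 week, 11459 ± 2403 at 10 days, 10050.2 ± 2064 at 2 weeks and 11673 ± 3304 at 3 weeks. Later means were 11681 ± 2440 at 4 weeks, 13132 ± 493 at 5 weeks, 13049 ± 1513 at 6 weeks and 11559 ± 674 at 7 weeks. At the end of the course it was 11313 ± 909 at 8 weeks, 11374 ± 1025 at 10 weeks, 9429.9 ± 1384 at 12 weeks, 9389 ± 1328 at 16 weeks and 8755 ± 760.3 at 20 weeks. The lowest, median and highest mouse were at 6199, 8385 and 10812 CPM before the diet and at 9652, 12340.1 and 14575 CPM after 1 day, so that the groups overlapped, with 6 of 6 mice at 1 day above the median at 0 days. The log2 change at 1 day was 0.54 ± 0.14 (SE, adjusted p = 0.00301), at 3 days 0.82 ± 0.14 (SE, adjusted p = 1.24e-06) and at 4 weeks 0.47 ± 0.14 (SE, adjusted p = 0.00513). Lpl passed as higher at 11 of 15 time points, and at the last ones it was back near its starting level, with 0.16 ± 0.14 (SE, adjusted p = 0.313) at 12 weeks and 0.056 ± 0.14 (SE, adjusted p = 0.746) at 20 weeks. The 12-week difference passed in 2 alternatives, with weights for library quality and without each time point's least correlated library (adjusted p = 0.00327 and adjusted p = 0.0451; 0.00327 to 0.802 over its alternatives).

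Around Lpl, the cell markers of epididymal fat shifted strongly late in the course. At 12 weeks 8 of 10 adipocyte genes were lower and 1 was higher (median log2 change -1.22), 7 of 8 macrophage genes were higher (3.01) and 8 of 8 genes of lipid-associated macrophages were higher (4.43), beside a median of -0.0035 over all genes. Lpl is expressed by macrophages as well as by fat cells. Its level at 12 weeks, 9429.9 ± 1384 CPM, thus stood beside lower adipocyte and higher macrophage transcripts, whose part in it was not tested.

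In inguinal fat the rise came later and was larger. Lpl was 5710 ± 1497 CPM at 0 days. Its means were then 7094 ± 1010.1 at 1 day, 8219 ± 3659 at 3 days, 6646 ± 2771 at 1 week, 5836 ± 3374 at 10 days, 4335 ± 1820.2 at 2 weeks and 8006 ± 2742 at 3 weeks. From 4 weeks on it was 7683 ± 2260.0 at 4 weeks, 10261 ± 1432 at 5 weeks, 7299 ± 3074 at 6 weeks and 11544 ± 639.7 at 7 weeks. The last means were 12479 ± 1458 at 8 weeks, 12434 ± 1827 at 10 weeks and 13295 ± 1439 at 12 weeks. The lowest, median and highest mouse had 2778, 6336 and 6807 CPM at 0 days and 11354, 13181 and 15126 CPM at 12 weeks, with no overlap between the groups. The log2 change at 12 weeks was 1.22 ± 0.29 (SE, adjusted p = 0.000394). Lpl passed as higher at 5 of 13 time points. One inguinal mouse at 0 days lay far below the others, with 2778 CPM against 5544 or more in the other 5, in a library of length balance -0.75. At 12 weeks 7 of 8 genes of lipid-associated macrophages (median log2 change 1.92) and 4 of 8 macrophage genes (0.60) were also higher in inguinal fat, and their part in the rise of Lpl was not tested. The 12-week rise of Lpl was called without the libraries of low length balance as well. At 12 weeks all 7 B cell and lymph node genes were lower in inguinal fat (median log2 change -6.74). The share of this tissue in the libraries was not tested as a part of the rise of Lpl. The same limit holds for the 12-week changes of the other members in inguinal fat, and for their comparison with epididymal fat.

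**Figure D3:**
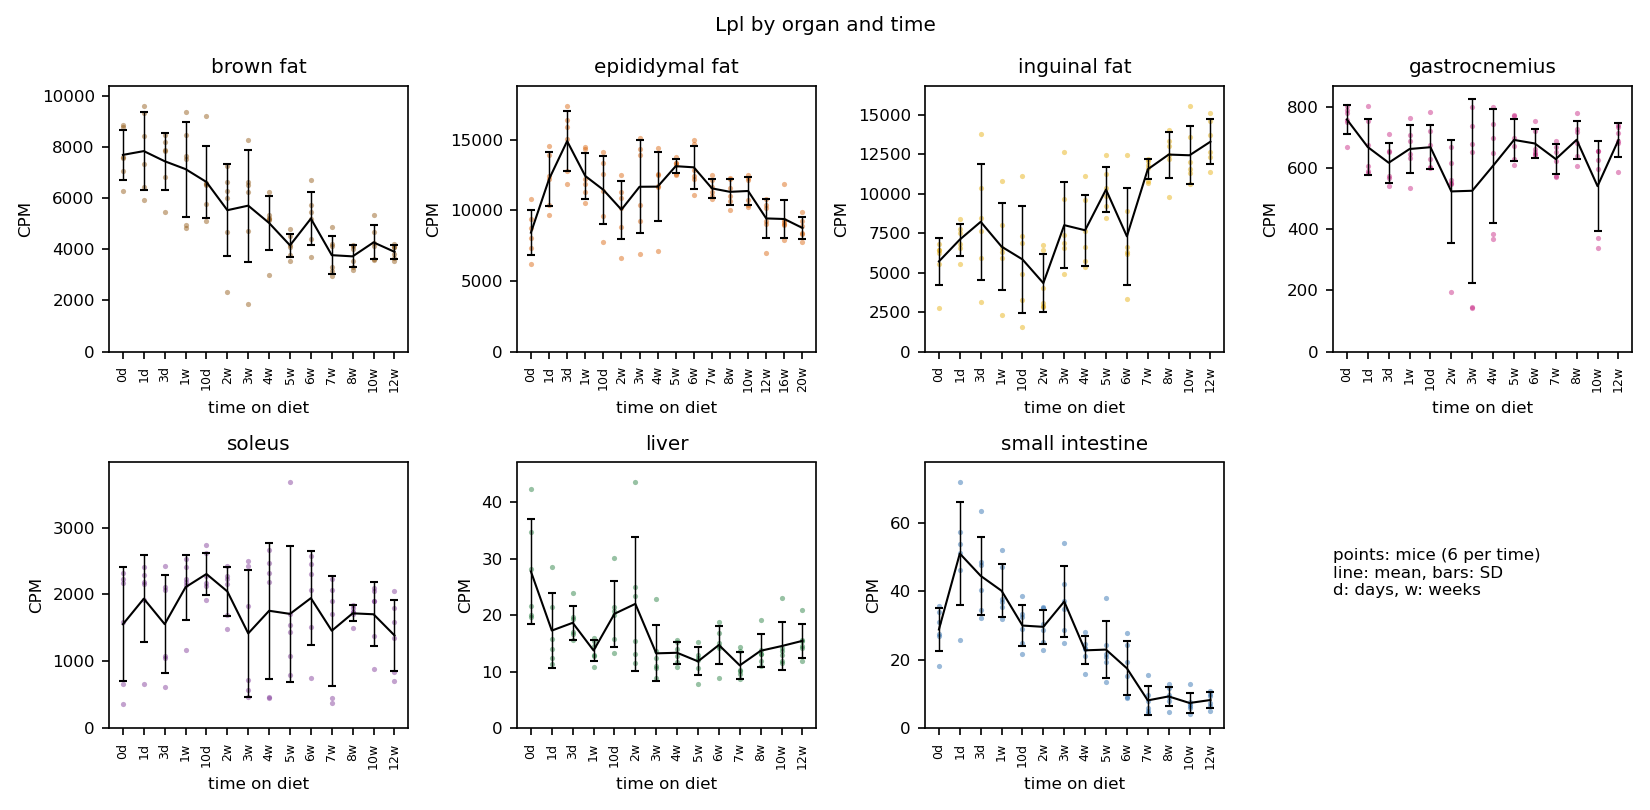
Lpl in the 7 organs over the time on diet (CPM, linear axes from 0, one panel per organ); points are mice, lines connect group means and bars give the SD (n = 6). Brown fat falls from 7702 to 3907 CPM, inguinal fat rises from 5710 to 13295 CPM, and soleus shows the widest spread relative to its mean.

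In muscle no lasting change of Lpl was found. In gastrocnemius, a mostly fast muscle of the calf, it was 760.2 ± 48.1 CPM at 0 days and 693 ± 56.1 at 12 weeks, and the means of the 14 time points lay between 525 and 760.2 CPM. Its lowest, median and highest mouse had 671, 770.1 and 806 CPM at 0 days and 589, 703 and 744 CPM at 12 weeks, with overlap. Its log2 change was -0.13 ± 0.22 (SE, adjusted p = 0.802). Lpl was called lower at 1 of 13 time points, at 3 weeks (-0.53 ± 0.22, SE, adjusted p = 0.0487), where the spread between mice was widest, with a coefficient of variation of 57.3% against a median of 10.7% over time points. Of the 6 libraries at 3 weeks, 2 had low length balance (-2.96 and -2.68), and without such libraries the change was -0.073 (adjusted p = 0.577). In soleus, a mostly slow muscle, the level was higher, 1554 ± 856 CPM at 0 days and 1388 ± 533 at 12 weeks, with a range of 359 to 2319.7 CPM over the 6 mice at 0 days. No time point was called there, with -0.16 ± 0.41 (SE, adjusted p = 0.923) at 12 weeks. Tested for any difference between time points, Lpl missed the threshold in both muscles (adjusted p = 0.483 and 0.908), but passed without the libraries of low length balance (0.0137 in gastrocnemius, 0.0137 to 0.787 over its alternatives, and 0.00156 in soleus, 0.00156 to 0.940 over its alternatives).

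In liver, where adult mice make little lipoprotein lipase, Lpl was low and fell early. From 27.7 ± 9.21 CPM at 0 days it went to 17.2 ± 6.59 at 1 day, 18.6 ± 2.99 at 3 days, 13.7 ± 1.89 at 1 week, 20.2 ± 5.80 at 10 days, 22.0 ± 11.9 at 2 weeks and 13.2 ± 4.94 at 3 weeks. Later means were 13.3 ± 1.95 at 4 weeks, 11.8 ± 2.47 at 5 weeks, 14.7 ± 3.36 at 6 weeks and 11.1 ± 2.35 at 7 weeks. In the last weeks it was 13.7 ± 2.88 at 8 weeks, 14.5 ± 4.32 at 10 weeks and 15.4 ± 3.02 at 12 weeks. As lowest, median and highest level, mice had 19.6, 24.9 and 42.2 CPM at 0 days and 10.7, 13.4 and 15.6 CPM at 4 weeks, with no overlap. On the log2 scale it changed by -0.68 ± 0.22 (SE, adjusted p = 0.0322) at 1 day, -1.05 ± 0.22 (SE, adjusted p = 0.000381) at 4 weeks and -0.84 ± 0.22 (SE, adjusted p = 0.000998) at 12 weeks. Lpl passed as lower at 10 of 13 time points. With the groups of 0 days and 1 day fitted alone, the change at 1 day had an adjusted p = 0.101 (0.00377 to 0.101 over its alternatives).

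Small intestine showed the largest relative fall of Lpl, and it fell together with fat cell genes. Lpl was 28.8 ± 6.22 CPM at 0 days. The next means were 50.9 ± 15.1 at 1 day, 44.4 ± 11.4 at 3 days, 40.1 ± 7.68 at 1 week, 29.9 ± 6.07 at 10 days, 29.5 ± 5.06 at 2 weeks and 36.9 ± 10.4 at 3 weeks. From 4 weeks on it was 22.7 ± 4.07 at 4 weeks, 22.9 ± 8.22 at 5 weeks, 17.4 ± 7.86 at 6 weeks and 8.07 ± 4.16 at 7 weeks. From 8 weeks it was 9.23 ± 2.89 at 8 weeks, 7.31 ± 2.98 at 10 weeks and 8.18 ± 2.31 at 12 weeks. Single mice had, as lowest, median and highest, 18.2, 29.1 and 35.6 CPM at 0 days, 25.8, 52.3 and 71.8 CPM at 1 day and 5.07, 8.33 and 10.9 CPM at 12 weeks. The groups of 0 days and 12 weeks did not overlap. The fitted log2 change was 0.83 ± 0.22 (SE, adjusted p = 0.00331) at 1 day and -1.80 ± 0.25 (SE, adjusted p = 1.40e-08) at 12 weeks. Lpl was called higher at 2 and lower at 5 of 13 time points. At 1 day 3 of 10 adipocyte genes were higher and 0 lower (median log2 change 0.40). Of 12 endothelial genes 8 were higher and 0 lower at 1 day (median 0.42), with 23.5% of all genes called. The part of these in the first-day rise of Lpl was not tested. Between 0 days and 12 weeks the mean of Adipoq, the adiponectin gene of fat cells, went from 9.43 to 0.896 CPM, and that of Plin1, which coats lipid droplets in fat cells, went from 6.17 to 0.501 CPM. Of the 10 adipocyte genes 5 were lower and 1 was higher at 12 weeks, and all 8 pancreatic acinar genes were lower, with a median sum of 9712 CPM at 0 days and 413 at 12 weeks. Over the 84 mice, with the time point removed, Lpl and Adipoq varied together: r = 0.845 (permutation p = 1.00e-05, adjusted 1.00e-05), rho = 0.826 (permutation p = 1.00e-05, adjusted 1.00e-05) and r = 0.832 without the 2 libraries farthest from the median of Adipoq. For Plin1 and Lpl r was 0.799 and rho 0.796, each with a permutation p of 1.00e-05, the smallest that 100000 resamples can give, before and after adjustment over these 2 relations. Whether the amount of attached fat in the samples sets the level of Lpl in small intestine was not tested.

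Gpihbp1, the capillary anchor of the enzyme, fell in epididymal fat and rose in brown fat. In epididymal fat it was 221 ± 29.7 CPM at 0 days. After that it was 172 ± 23.0 at 1 day, 156 ± 30.1 at 3 days, 198 ± 10.7 at 1 week, 234 ± 88.4 at 10 days, 208 ± 79.8 at 2 weeks and 214 ± 85.9 at 3 weeks. From 4 weeks it was 174 ± 28.6 at 4 weeks, 162 ± 13.5 at 5 weeks, 159.5 ± 30.1 at 6 weeks and 142 ± 21.5 at 7 weeks. At the end of the course it was 108 ± 22.8 at 8 weeks, 133 ± 43.4 at 10 weeks, 67.7 ± 15.2 at 12 weeks, 60.5 ± 26.3 at 16 weeks and 54.4 ± 8.49 at 20 weeks. The lowest, median and highest mouse had 195, 212 and 279.5 CPM at 0 days, 47.4, 66.8 and 94.5 CPM at 12 weeks and 46.1, 50.9 and 68.5 CPM at 20 weeks. Neither late group overlapped with the first. The log2 change was -1.70 ± 0.21 (SE, adjusted p = 2.20e-11) at 12 weeks and -2.02 ± 0.21 (SE, adjusted p = 6.06e-14) at 20 weeks. Gpihbp1 passed as lower at 8 of 15 time points. All 12 endothelial marker genes were lower there at 12 weeks, with a median log2 change of -1.0 and a summed level of 1131 to 1844 CPM at 0 days against 429 to 959.6 at 12 weeks. The part of these in the fall of Gpihbp1 was not tested.

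In brown fat Gpihbp1 went up late. It stood at 116 ± 6.40 CPM at 0 days, 118 ± 11.8 at 1 day, 123 ± 22.2 at 4 weeks and 164 ± 13.4 at 12 weeks. Its lowest, median and highest mouse had 108, 115 and 127 CPM before the diet and 149, 162 and 182 CPM after 12 weeks, so that the groups did not overlap. Its log2 change was 0.51 ± 0.13 (SE, adjusted p = 0.00151). Of the 12 endothelial genes 6 were higher and 0 lower there (median 0.51). In inguinal fat the means went from 105 ± 21.4 to 149 ± 12.1 CPM with a wide spread in between (coefficient of variation up to 95.6% at 3 weeks), and no time point was called (0.51 ± 0.34 (SE, adjusted p = 0.228) at 12 weeks). The 12-week value passed as higher with voom (0.59 (adjusted p = 0.000328)), with the 2 groups alone (0.48 (adjusted p = 0.00423)), without each time point's least correlated library (0.64 (adjusted p = 0.0331)) and with the length balance covariate (0.67 (adjusted p = 0.00984)), with a range of 0.000328 to 0.272 over its alternatives. In brown fat the call at 3 weeks (0.33 ± 0.13 (SE, adjusted p = 0.0443)) was lost without the libraries of low length balance, with 0.23 (adjusted p = 0.0685).

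Outside fat, Gpihbp1 was called at few time points in muscle and at none in liver. In gastrocnemius it was 31.7 ± 2.68 CPM at 0 days and 38.1 ± 4.84 at 12 weeks (0.27 ± 0.35 (SE, adjusted p = 0.751)) and was called higher at 2 of 13 time points, 3 and 10 weeks, each with 2 libraries of low length balance. The log2 change went from 1.51 ± 0.36 (SE) at 3 weeks to 0.12 (adjusted p = 0.498) without such libraries, and from 0.95 ± 0.35 (SE) at 10 weeks to 0.042 (adjusted p = 0.800). The test for any difference between time points passed (adjusted p = 0.000162) and was lost without these libraries (0.0684) and with length balance as a covariate (0.0808), with a range of 0.000115 to 0.0808 over its alternatives. Over the libraries of gastrocnemius the level of Gpihbp1 followed length balance with r = -0.953, a description. With length balance as a covariate its 4-week log2 change there went from 0.23 to -0.26. Soleus had 84 ± 64.6 CPM at 0 days and 87.5 ± 41.2 at 12 weeks, with no time point called. The test for any difference between time points missed the threshold there (adjusted p = 0.260). It passed with the length balance covariate (0.00517) and without each time point's least correlated library (0.00489). Liver had 14.8 ± 2.28 and 17.3 ± 2.02 CPM, with a median coefficient of variation of 14.7% and again no call. With the covariate the 12-week value of Gpihbp1 passed as higher in soleus (0.37 (adjusted p = 0.0126)) and in liver (0.41 (adjusted p = 0.0357)). In small intestine it was barely detected, 0.854 ± 0.557 CPM at 0 days and 1.6 ± 0.694 at 4 weeks. The test called it higher at 7 of 13 time points, with a log2 change of 0.88 ± 0.30 (SE, adjusted p = 0.0148) at 4 weeks. With the 2 groups alone this was 0.86 (adjusted p = 0.0828), with a range of 0.00432 to 0.0828 over its alternatives, and the test for any difference between time points missed the threshold (adjusted p = 0.0992). There 10 of 12 endothelial genes were higher at 12 weeks and 0 lower.

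**Figure D4:**
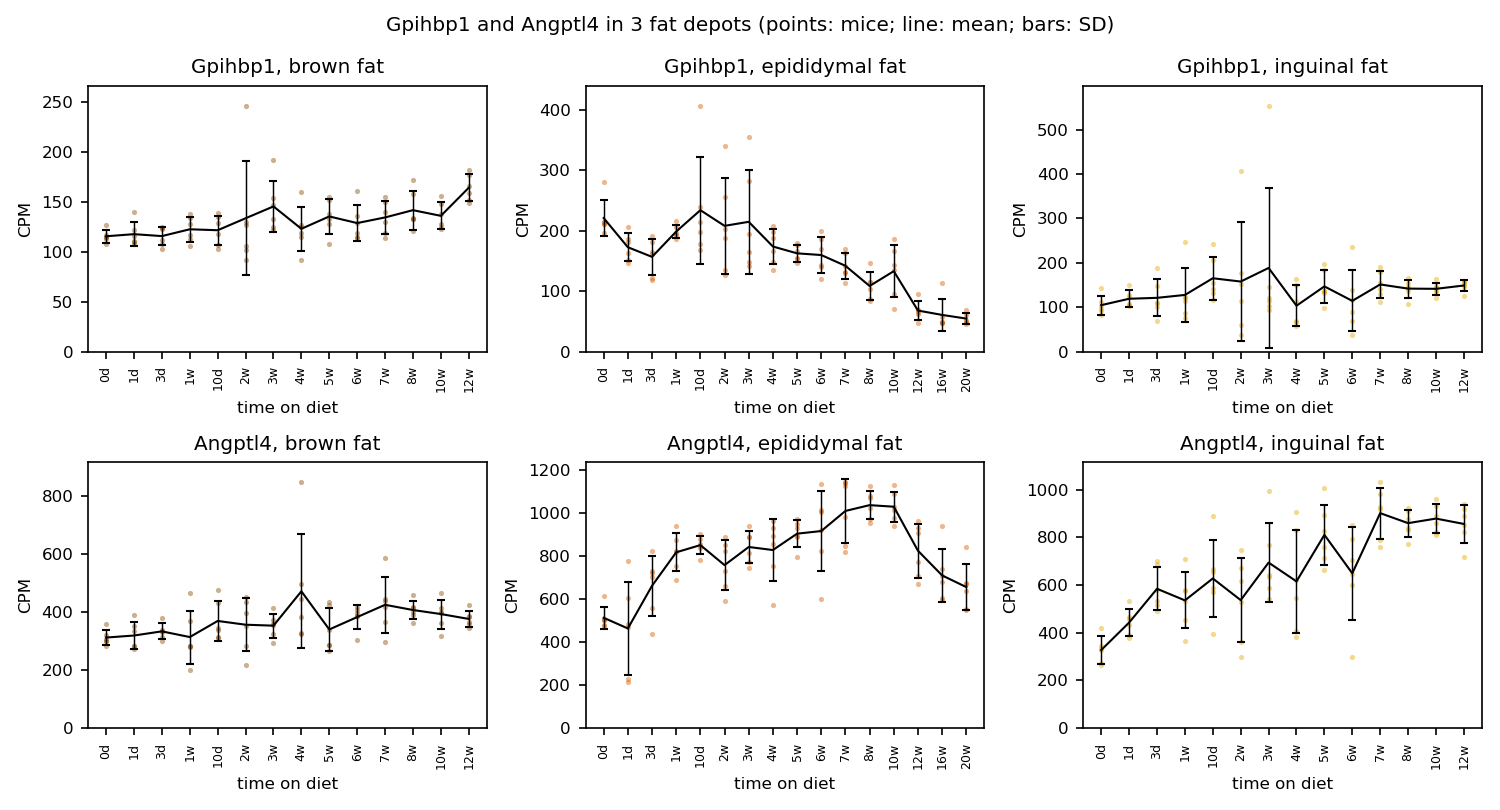
Gpihbp1 (top) and Angptl4 (bottom) in brown, epididymal and inguinal fat over the time on diet (CPM, axes from 0); points are mice, lines group means, bars SD (n = 6). Gpihbp1 falls in epididymal fat from 221 to 54.4 CPM at 20 weeks, and Angptl4 rises in inguinal fat from 327 to 856 CPM.

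Lmf1, needed to fold the enzyme, fell in epididymal fat and rose in small intestine. In epididymal fat it was 28.2 ± 3.12 CPM at 0 days, 29.7 ± 5.02 at 1 day, 26.1 ± 3.75 at 4 weeks, 19.2 ± 1.59 at 12 weeks and 17.9 ± 1.64 at 20 weeks. As lowest, median and highest level, mice had 24.2, 27.5 and 33.0 CPM at 0 days and 17.7, 18.8 and 22.1 CPM at 12 weeks, without overlap. On the log2 scale it changed by -0.56 ± 0.12 (SE, adjusted p = 2.64e-05) at 12 weeks and -0.65 ± 0.12 (SE, adjusted p = 1.24e-06) at 20 weeks. It was called lower at 6 of 15 time points. In small intestine Lmf1 was 8.17 ± 0.855 CPM at 0 days. It then stood at 10.8 ± 1.30 at 1 day, 11 ± 2.44 at 3 days, 11.9 ± 1.20 at 1 week, 11.5 ± 0.579 at 10 days, 11.2 ± 1.55 at 2 weeks and 12.4 ± 0.881 at 3 weeks. Its later means were 13.2 ± 0.733 at 4 weeks, 12.5 ± 0.896 at 5 weeks, 10.8 ± 1.49 at 6 weeks and 13.8 ± 1.78 at 7 weeks. The last means were 12.3 ± 1.94 at 8 weeks, 12.2 ± 0.961 at 10 weeks and 12.6 ± 1.21 at 12 weeks. All 13 time points were called higher than 0 days, with a log2 change of 0.40 ± 0.10 (SE, adjusted p = 0.00157) at 1 day and 0.63 ± 0.097 (SE, adjusted p = 1.56e-07) at 12 weeks; at 12 weeks the lowest mouse had 11 CPM and the highest at 0 days 9.59.

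Elsewhere Lmf1 varied less. In brown fat it was 42.5 ± 5.76 CPM at 0 days and 39.7 ± 2.1 at 12 weeks (-0.099 ± 0.13 (SE, adjusted p = 0.617)), with 2 of 13 time points called higher, at 2 weeks (57.3 ± 14.8 CPM) and 3 weeks (57.7 ± 23.7 CPM), both with a library of low length balance. Without these libraries the log2 change was 0.26 (adjusted p = 0.0271) at 2 weeks, which passed, and 0.18 (adjusted p = 0.128) at 3 weeks, which did not. In inguinal fat the means went from 22.5 ± 2.45 to 20.1 ± 2.22 CPM with no call. Liver had 34.8 ± 3.35 CPM at 0 days and 40.1 ± 2.1 at 12 weeks, a log2 change of 0.20 ± 0.084 (SE, adjusted p = 0.0417); with length balance as a covariate this value was 0.057 (adjusted p = 0.703; 5.44e-05 to 0.703 over its alternatives). In the muscles Lmf1 was 8.19 ± 0.452 CPM in gastrocnemius and 14.5 ± 5.93 in soleus at 12 weeks, with log2 changes of -0.012 ± 0.19 (SE, adjusted p = 0.986) and -0.13 ± 0.40 (SE, adjusted p = 0.942). The call in gastrocnemius at 3 weeks (0.63 ± 0.19 (SE, adjusted p = 0.00778)) was lost without the libraries of low length balance, with 0.045 (adjusted p = 0.837).

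Angptl4, the inhibitor, rose in both white fat depots within the first weeks. In epididymal fat it was 514 ± 51.3 CPM at 0 days. Its means were then 464 ± 217 at 1 day, 663 ± 140.0 at 3 days, 819 ± 88.6 at 1 week, 852 ± 41.3 at 10 days, 759 ± 117 at 2 weeks and 843 ± 75.9 at 3 weeks. From 4 weeks it was 829 ± 145 at 4 weeks, 905 ± 63.5 at 5 weeks, 918 ± 186 at 6 weeks and 1011 ± 149.7 at 7 weeks. In the last weeks it was 1038 ± 66.1 at 8 weeks, 1031 ± 70.7 at 10 weeks, 826 ± 125 at 12 weeks, 711 ± 125 at 16 weeks and 657 ± 107 at 20 weeks. The mice at 1 day were unusually spread, from 215 to 777 CPM (coefficient of variation 46.7%), on both sides of the 0-day range of 477 to 615. At 12 weeks the lowest, median and highest mouse had 671, 841 and 963 CPM, all above 0 days. The fitted log2 change was 0.69 ± 0.16 (SE, adjusted p = 0.000291) at 4 weeks, 0.69 ± 0.16 (SE, adjusted p = 9.06e-05) at 12 weeks and 0.35 ± 0.15 (SE, adjusted p = 0.0412) at 20 weeks. The test called it higher at 13 of 15 time points. The 20-week value lay near the threshold. It was 0.30 (adjusted p = 0.0819) with DESeq2, 0.30 (adjusted p = 0.0840) with its size factors in edgeR and 0.30 (adjusted p = 0.0583) without the libraries of low length balance, with a range of 0.00537 to 0.0925 over its alternatives.

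In inguinal fat Angptl4 climbed further. It was 327 ± 57.2 CPM at 0 days. The next means were 442 ± 56.7 at 1 day, 584 ± 89.8 at 3 days, 535 ± 118 at 1 week, 627 ± 162 at 10 days, 537 ± 177 at 2 weeks and 694 ± 165 at 3 weeks. From 4 weeks it was 615 ± 215 at 4 weeks, 811 ± 127 at 5 weeks, 649 ± 195 at 6 weeks and 902 ± 108 at 7 weeks. From 8 weeks it was 859.6 ± 56.8 at 8 weeks, 879 ± 60.3 at 10 weeks and 856 ± 80.6 at 12 weeks. Single mice had, as lowest, median and highest, 263, 331 and 422 CPM at 0 days and 716, 870.5 and 938 CPM at 12 weeks, with no overlap. The log2 change was 0.91 ± 0.19 (SE, adjusted p = 0.000322) at 4 weeks and 1.39 ± 0.19 (SE, adjusted p = 8.16e-09) at 12 weeks. It was called higher at 12 of 13 time points. In brown fat Angptl4 went from 311 ± 26.2 CPM to 470.5 ± 196 at 4 weeks and 375 ± 27.2 at 12 weeks, and 2 of 13 time points were called. The 4-week value (0.60 ± 0.16 (SE, adjusted p = 0.00542)) holds 1 library at 846 CPM, of length balance -0.83, against 325 to 497 in the other 5 mice, and without the libraries of low length balance its log2 change was 0.33 (adjusted p = 0.0694; 0.00272 to 0.107 over its alternatives). At 12 weeks it was not called (0.27 ± 0.16 (SE, adjusted p = 0.210)). With the 2 groups alone in edgeR the 12-week value passed as higher, with 0.26 (adjusted p = 0.00679). The slope over log2(days + 1) passed too (adjusted p = 0.000920), with a range of 0.000920 to 0.296 over its alternatives.

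In muscle Angptl4 was low, and its 12-week change differed between the 2 muscles. In gastrocnemius it was 8.03 ± 3.72 CPM at 0 days. After that it was 12.8 ± 3.94 at 1 day, 12.9 ± 3.94 at 3 days, 13.2 ± 5.19 at 1 week, 13.0 ± 2.98 at 10 days, 14.5 ± 6.83 at 2 weeks and 22.3 ± 9.32 at 3 weeks. Later means were 22.7 ± 5.58 at 4 weeks, 12.6 ± 5.00 at 5 weeks, 16.4 ± 7.97 at 6 weeks and 13.6 ± 4.60 at 7 weeks. At the end of the course it was 19.0 ± 5.57 at 8 weeks, 17.1 ± 8.81 at 10 weeks and 13.4 ± 3.04 at 12 weeks. The test called it higher at 6 of 13 time points (the call at 2 weeks was lost without the libraries of low length balance, with 0.64 (adjusted p = 0.122)), with a log2 change of 1.49 ± 0.30 (SE, adjusted p = 0.000496) at 4 weeks and 0.73 ± 0.30 (SE, adjusted p = 0.147) at 12 weeks. The 12-week value was called in 5 alternatives, among them the fit without libraries of low length balance (adjusted p = 0.0260; 0.00360 to 0.158 over its alternatives). One mouse at 0 days had 15.5 CPM, against at most 7.07 in the other 5. In soleus it was 32.5 ± 17.5 CPM at 0 days, 46.5 ± 19.7 at 4 weeks and 11.4 ± 2.80 at 12 weeks. The lowest, median and highest mouse had 16.3, 27.9 and 66.7 CPM and 8.75, 10.7 and 15.7 CPM at 0 days and 12 weeks, without overlap. Its log2 change was -1.50 ± 0.45 (SE, adjusted p = 0.0362). Without the libraries of low length balance, one of which had the 66.7 CPM at 0 days, the value was -1.42 (adjusted p = 0.0624). It was -1.27 (adjusted p = 0.102) without each time point's least correlated library, and the slope over log2(days + 1) had an adjusted p of 0.330, so that 3 alternatives ended the call, with a range of 0.00433 to 0.330 over its alternatives.

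In liver, Angptl4 went from 208 ± 34.2 CPM at 0 days to 148 ± 39.2 at 1 day, 142 ± 43.9 at 3 days, 171 ± 42.5 at 4 weeks and 203 ± 30.5 at 12 weeks. No time point was called (-0.49 ± 0.23 (SE, adjusted p = 0.179) at 1 day), and the coefficient of variation between mice reached 47.8% at 2 weeks. With the replicate number as a block in edgeR, Angptl4 passed at 1 day (-0.51 (adjusted p = 0.0243; 0.0243 to 0.265 over its alternatives)). In small intestine it was 101 ± 46.7 CPM at 0 days. It then stood at 58.8 ± 15.1 at 1 day, 52.8 ± 25.9 at 3 days, 48.5 ± 10.4 at 1 week, 66.0 ± 28.7 at 10 days, 67.5 ± 30.6 at 2 weeks and 80.8 ± 22.0 at 3 weeks. Later means were 63.0 ± 16.4 at 4 weeks, 53.5 ± 21.8 at 5 weeks, 56.7 ± 18.3 at 6 weeks and 55.5 ± 16.9 at 7 weeks. The last means were 44.6 ± 20.4 at 8 weeks, 47.9 ± 16.6 at 10 weeks and 59.3 ± 16.8 at 12 weeks. Its lowest, median and highest mouse had 50.7, 100.2 and 182 CPM at 0 days and 41.3, 54.8 and 82.3 CPM at 12 weeks. The groups overlapped. On the log2 scale it changed by -0.78 ± 0.29 (SE, adjusted p = 0.0431) at 1 day and -0.77 ± 0.29 (SE, adjusted p = 0.0290) at 12 weeks. It was called lower at 9 of 13 time points. Both calls were lost in limma's voom with weights for library quality (adjusted p = 0.180 and 0.0709; 0.000975 to 0.180 over its alternatives at 1 day and 0.000398 to 0.0709 over its alternatives at 12 weeks).

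Angptl8, a feeding-induced gene, rose sharply on the first day in epididymal fat and in small intestine. In epididymal fat it was 3.42 ± 1.59 CPM at 0 days. Its means were then 12.8 ± 6.17 at 1 day, 9.94 ± 4.01 at 3 days, 3.28 ± 0.909 at 1 week, 5.15 ± 5.33 at 10 days, 6.20 ± 1.53 at 2 weeks and 5.06 ± 2.09 at 3 weeks. From 4 weeks it was 3.58 ± 1.18 at 4 weeks, 4.45 ± 1.16 at 5 weeks, 5.41 ± 1.79 at 6 weeks and 4.20 ± 1.34 at 7 weeks. In the last weeks it was 6.18 ± 1.83 at 8 weeks, 6.26 ± 1.05 at 10 weeks, 6.18 ± 2.20 at 12 weeks, 5.87 ± 1.78 at 16 weeks and 7.57 ± 1.94 at 20 weeks. As lowest, median and highest level, mice had 1.70, 3.08 and 5.96 CPM at 0 days and 5.03, 12.2 and 19.8 CPM at 1 day; the groups overlapped, although all 6 mice at 1 day exceeded the median at 0 days. The fitted log2 change was 1.9 ± 0.33 (SE, adjusted p = 7.47e-06) at 1 day, 0.063 ± 0.33 (SE, adjusted p = 0.908) at 4 weeks, 0.85 ± 0.33 (SE, adjusted p = 0.0197) at 12 weeks and 1.15 ± 0.33 (SE, adjusted p = 0.00161) at 20 weeks. The call at 2 weeks (0.86 ± 0.32 (SE, adjusted p = 0.0298)) was lost without the libraries of low length balance, with 0.76 (adjusted p = 0.0733). A straight trend over log2(days + 1) had a slope of -0.055 ± 0.035 per doubling of time (SE, adjusted p = 0.154), and the highest mean came at 1 day.

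In inguinal fat Angptl8 was 5.01 ± 2.25 CPM at 0 days. The next means were 8.96 ± 3.52 at 1 day, 11.2 ± 10.1 at 3 days, 5.13 ± 4.97 at 1 week, 4.40 ± 3.38 at 10 days, 5.62 ± 4.64 at 2 weeks and 6.11 ± 5.46 at 3 weeks. From 4 weeks it was 1.97 ± 0.492 at 4 weeks, 4.06 ± 1.68 at 5 weeks, 5.52 ± 3.32 at 6 weeks and 6.20 ± 1.42 at 7 weeks. From 8 weeks it was 9.15 ± 2.86 at 8 weeks, 8.75 ± 3.45 at 10 weeks and 15.5 ± 7.08 at 12 weeks. It was thus lowest at 4 weeks and highest at 12 weeks. Single mice had, as lowest, median and highest, 3.41, 3.95 and 9.30 CPM at 0 days, 1.47, 1.97 and 2.78 CPM at 4 weeks and 8.67, 13.9 and 26.1 CPM at 12 weeks. At 4 weeks all 6 mice lay below all 6 of 0 days, with a log2 change of -1.34 ± 0.48 (SE, adjusted p = 0.0498) that just passed and was lost without the filter on low counts (adjusted p = 0.0535; 0.00675 to 0.0552 over its alternatives). At 12 weeks the log2 change was 1.63 ± 0.47 (SE, adjusted p = 0.00304), with overlap.

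In small intestine Angptl8 went from 1.97 ± 0.498 CPM to 3.97 ± 0.743 at 1 day, 3.85 ± 0.627 at 4 weeks and 2.89 ± 0.817 at 12 weeks. At 1 day all 6 mice (2.96, 3.81 and 4.97 CPM as lowest, median and highest) lay above all 6 of 0 days (1.49, 1.91 and 2.65 CPM). The log2 change was 1.02 ± 0.18 (SE, adjusted p = 5.37e-06) at 1 day and 0.56 ± 0.18 (SE, adjusted p = 0.00993) at 12 weeks. The test called it higher at 11 of 13 time points. The 12-week value with the 2 groups alone was 0.55 (adjusted p = 0.0606), and the slope over log2(days + 1) had an adjusted p of 0.0651, neither past the threshold, with a range of 0.00914 to 0.0651 over its alternatives. In brown fat Angptl8 was 17.4 ± 4.21 CPM at 0 days, 23.2 ± 2.06 at 1 day and 20.5 ± 2.86 at 12 weeks. The change at 1 day was 0.41 ± 0.30 (SE, adjusted p = 0.375), and it passed without the libraries of low length balance (adjusted p = 0.00833; 0.000761 to 0.406 over its alternatives). At 2 and 3 weeks, when 1 library each of brown fat had low length balance, Angptl8 was called higher (32.5 ± 36.9 and 33.1 ± 31.7 CPM). Its log2 changes there were 0.87 ± 0.30 (SE, adjusted p = 0.0229) and 0.90 ± 0.30 (SE, adjusted p = 0.0200), and without these libraries they were -0.0064 (adjusted p = 0.981) and 0.20 (adjusted p = 0.294), so that neither passed. In liver Angptl8 was 17.7 ± 13.1 CPM at 0 days and 17.7 ± 6.69 at 12 weeks, with no call. Liver mice of a single time point differed widely, by a median coefficient of variation of 57.7% and up to 102% at 10 days, against 8.52% for Lipc in the same livers. In the muscles the mean over all libraries was 0.119 CPM in gastrocnemius and 0.0567 in soleus, too low to be tested.

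Lipc, the hepatic lipase, fell in liver over the course. From 176 ± 21.5 CPM at 0 days it went to 159 ± 20.0 at 1 day, 161 ± 6.14 at 3 days, 146 ± 6.81 at 1 week, 140.4 ± 8.86 at 10 days, 146 ± 14.5 at 2 weeks and 132 ± 14.5 at 3 weeks. Later means were 127 ± 7.31 at 4 weeks, 142 ± 9.88 at 5 weeks, 124 ± 11.1 at 6 weeks and 123 ± 9.84 at 7 weeks. At the end of the course it was 105 ± 16.1 at 8 weeks, 122 ± 9.93 at 10 weeks and 96.5 ± 16.7 at 12 weeks. The lowest, median and highest mouse had 144, 173 and 200.4 CPM at 0 days, 119, 125 and 137 CPM at 4 weeks and 80.2, 89.2 and 125 CPM at 12 weeks. Neither later group overlapped with the first. Its log2 change was -0.15 ± 0.083 (SE, adjusted p = 0.276) at 1 day, -0.47 ± 0.084 (SE, adjusted p = 2.26e-05) at 4 weeks and -0.87 ± 0.084 (SE, adjusted p = 5.63e-14) at 12 weeks. Lipc was called lower at 11 of 13 time points. It ranked 259 of 12592 genes by its p for any difference between time points, and the 4-week and 12-week calls stood in all alternatives run, with adjusted p of at most 0.00119 and 9.18e-06. Of 8 hepatocyte genes 4 were lower and 2 higher at 12 weeks (median log2 change -0.39).

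Outside liver the mean of Lipc over all libraries was 0.675 CPM in epididymal fat, 0.275 in inguinal fat, 0.297 in small intestine and 0.0264 in brown fat, 0.0170 in gastrocnemius and 0.0281 in soleus. In epididymal fat single libraries stood far above the rest, at 9.91 CPM at 10 days, 11 at 2 weeks and 12.1 at 7 weeks. Lipc was called at 1 of 15 time points there, at 7 weeks, with 2.51 ± 4.75 CPM (SD, n = 6) and a log2 change of 2.57 (edgeR adjusted p = 0.0262). The edgeR test for any difference between time points passed (adjusted p = 2.47e-05) and was lost with voom (adjusted p = 0.140). The summed hepatocyte genes of the epididymal libraries ranged from 4.27 to 1913 CPM, and their part in these values was not tested.

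**Figure D5:**
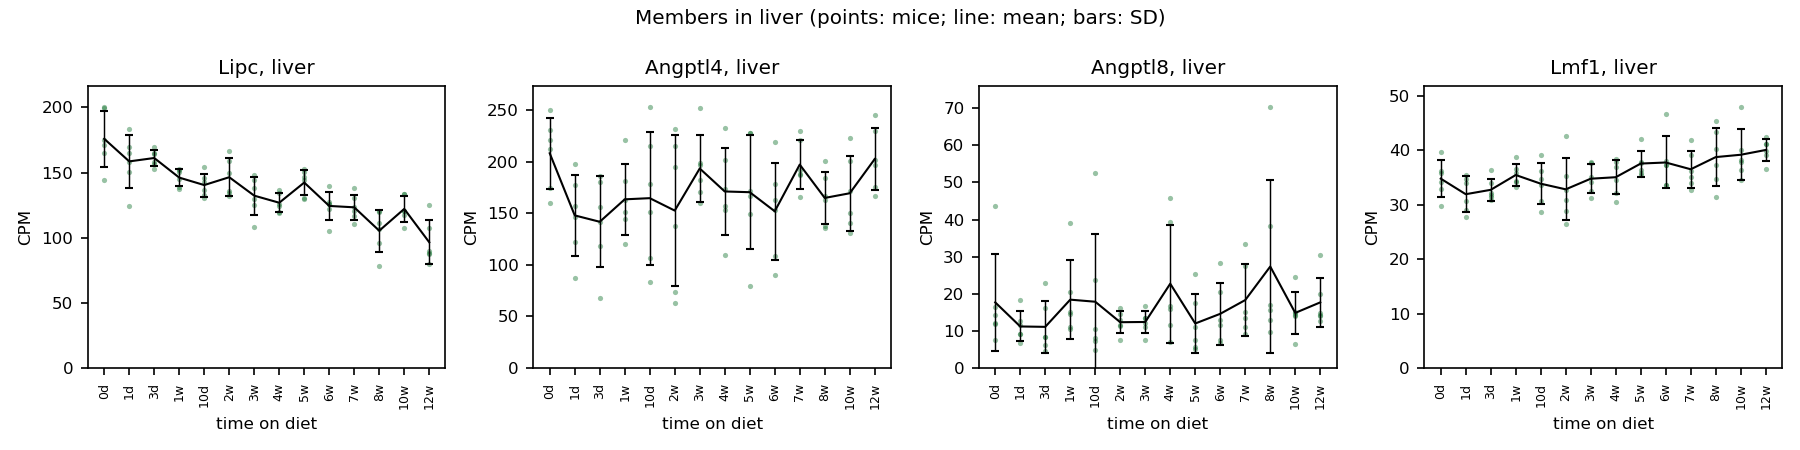
Lipc, Angptl4, Angptl8 and Lmf1 in liver over the time on diet (CPM, axes from 0); points are mice, lines group means, bars SD (n = 6). Lipc falls from 176 to 96.5 CPM with little spread, while Angptl8 varies widely between mice of a time point (its bar at 10 days is cut at 0).

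The 12-week changes of several members differed between organs when the difference itself was tested, as an organ by time interaction in a joint edgeR fit. Between epididymal and inguinal fat, 4 of 6 members differed (all genes 39.4%). Gpihbp1 had a log2 difference, epididymal minus inguinal, of -2.27 ± 0.39 (SE, adjusted p = 1.02e-06), Lpl of -1.11 ± 0.32 (SE, adjusted p = 0.00322), Angptl4 of -0.76 ± 0.24 (SE, adjusted p = 0.00730) and Lmf1 of -0.45 ± 0.18 (SE, adjusted p = 0.0363). All 4 were thus lower in epididymal fat relative to their start than in inguinal fat. Between epididymal and brown fat 3 of 6 differed (all genes 39.9%), with -2.25 ± 0.23 (SE, adjusted p = 4.62e-15) for Gpihbp1, 1.11 ± 0.24 (SE, adjusted p = 8.36e-05) for Lpl and -0.49 ± 0.17 (SE, adjusted p = 0.0145) for Lmf1, epididymal minus brown. The anchor and the enzyme therefore differed in opposite directions between these depots. Between the muscles 1 of 4 differed (all genes 0.348%), Angptl4 with 2.23 ± 0.54 (SE, adjusted p = 0.0271), gastrocnemius minus soleus. The first pairs share the epididymal libraries, and their values are not independent. The joint fit took the libraries of 2 organs as separate mice. With libraries of the same time and number taken as 1 mouse in voom, all 16 tested differences kept their side of the threshold. Of the 8 called differences, Lmf1 between the white depots was lost with DESeq2's size factors (adjusted p = 0.0517; 0.00955 to 0.0517 over its alternatives).

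Within a time point, mice with more Lpl also had more Angptl4 in inguinal fat and less Angptl4 in liver and small intestine. Deviations of log2(CPM + 1) from the time point means were correlated over all mice of an organ, for Lpl with Angptl4 and with Gpihbp1 in 7 organs, 14 relations with permutation within time points. In inguinal fat, over 84 mice, Lpl and Angptl4 had r = 0.633 (permutation p = 1.00e-05, adjusted 4.67e-05), rho = 0.557 (permutation p = 1.00e-05, adjusted 7.00e-05) and r = 0.571 without the 2 libraries farthest from the median of Lpl. In liver they had r = -0.412 (permutation p = 0.00226, adjusted 0.00527), rho = -0.356 (permutation p = 0.00368, adjusted 0.00859) and r = -0.339 without the 2 libraries farthest from the median of Lpl. In small intestine r was -0.260 (adjusted permutation p = 0.0377), in soleus -0.547 (0.000105) and in gastrocnemius -0.397 (0.00344), and brown fat (-0.281, 0.0512) and epididymal fat (0.194, 0.0996, 96 mice) missed the threshold. Inguinal libraries also varied in muscle and lymph node transcripts, whose part in the relations of Lpl there was not tested. Lpl itself followed the length balance in muscle and fat, with r = 0.942 in soleus, 0.913 in gastrocnemius, 0.562 in inguinal fat and 0.0891 in liver. With length balance removed from both genes, r of Lpl and Angptl4 was 0.867 (adjusted permutation p = 4.67e-05) in inguinal fat, -0.448 (adjusted permutation p = 0.00213) in liver, -0.260 (adjusted permutation p = 0.0415) in small intestine and -0.475 (adjusted permutation p = 0.000140) in brown fat. It was 0.0992 (adjusted permutation p = 0.722) in soleus and 0.0436 (adjusted permutation p = 0.771) in gastrocnemius. The negative relation in the muscles therefore did not hold once length balance was taken out.

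The same applied to Gpihbp1. Its r with Lpl was -0.914 in soleus and -0.853 in gastrocnemius (adjusted permutation p = 4.67e-05 for both), and it was -0.0293 (adjusted permutation p = 0.778) and 0.140 (adjusted permutation p = 0.446) with length balance removed. In brown fat r was -0.389 (0.0367), with rho -0.0453 (adjusted permutation p = 0.715), and 0.0750 (adjusted permutation p = 0.747) with length balance removed, neither past the threshold. Without the 2 libraries farthest from the median of Lpl, r in brown fat was -0.00186. In inguinal fat r went from 0.101 (0.586) to 0.849 (adjusted permutation p = 4.67e-05), and in epididymal fat from -0.0712 (0.696) to 0.513 (adjusted permutation p = 4.67e-05). Lpl and Gpihbp1 thus varied together between mice in both white depots only after this removal, which was added after the data were seen. In liver and small intestine r of Lpl with Gpihbp1 was -0.0324 and 0.0492, neither past the threshold.

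Other genes of the pathway were set beside the members. A list of 28 genes held the apolipoproteins that act on the enzyme, its folding and export factors, the proteases that cut it or its inhibitors, and the receptors and carriers that take up lipoproteins and fatty acids. At 12 weeks against 0 days these were 3 higher and 9 lower of 25 in brown fat (median -0.28, all genes 0.0034, 27.6% of all genes called), 8 higher and 12 lower of 26 in epididymal fat (median -0.25, all genes -0.0035, 60.4% of all genes called) and 8 higher and 6 lower of 26 in inguinal fat (median 0.40, all genes -0.0099, 44.6% of all genes called). In the other organs there were 2 higher and 0 lower of 22 in gastrocnemius (median -0.15, all genes -0.028, 5.94% of all genes called), 2 higher and 1 lower of 22 in soleus (median -0.14, all genes -0.065, 3.88% of all genes called), 14 higher and 5 lower of 28 in liver (median 0.25, all genes 0.0068, 42% of all genes called) and 11 higher and 2 lower of 26 in small intestine (median 0.18, all genes 0.015, 38.9% of all genes called). Cd36, a fatty acid transporter that takes up what the lipase releases, had a log2 change of 2.80 ± 0.19 (SE, adjusted p = 1.64e-20) in liver, 1.42 ± 0.22 (SE, adjusted p = 1.61e-07) in inguinal fat, 0.89 ± 0.089 (SE, adjusted p = 1.47e-14) in epididymal fat, 0.91 ± 0.20 (SE, adjusted p = 0.00156) in soleus and 0.64 ± 0.10 (SE, adjusted p = 6.14e-06) in gastrocnemius. Vldlr, a receptor for triglyceride-rich particles, changed by 2.26 ± 0.34 (SE, adjusted p = 1.14e-07) in inguinal and 1.45 ± 0.16 (SE, adjusted p = 3.79e-13) in epididymal fat. Sdc1, a heparan sulphate carrier of lipase in secretory vesicles, changed by 1.9 ± 0.21 (SE, adjusted p = 6.92e-13) in epididymal fat. In brown fat the leading genes were lower: Sort1, a sorting receptor, with -0.64 ± 0.068 (SE, adjusted p = 6.11e-12), the protease gene Pcsk5 with -1.43 ± 0.19 (SE, adjusted p = 6.85e-09) and the lipoprotein receptor gene Scarb1 with -0.89 ± 0.15 (SE, adjusted p = 1.98e-06).

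In liver the protease gene Pcsk6 changed by 0.85 ± 0.095 (SE, adjusted p = 9.33e-12), while Lipc and Lpl fell. In small intestine Apoe, an apolipoprotein of remnant particles, changed by 1.01 ± 0.051 (SE, adjusted p = 2.21e-28), Scarb1 by 1.25 ± 0.10 (SE, adjusted p = 1.18e-16) and the fat cell carrier Fabp4 by -1.34 ± 0.19 (SE, adjusted p = 1.02e-08), the last in the same direction as Lpl. In the muscles Sdc4, a cell surface heparan sulphate proteoglycan, changed by 1.04 ± 0.23 (SE, adjusted p = 0.00166) in soleus and 0.39 ± 0.11 (SE, adjusted p = 0.0198) in gastrocnemius.

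Angptl4 is a known target of the fatty acid receptors of the PPAR family, and 24 other such targets were set beside it. At 12 weeks there were 7 higher and 3 lower of 23 in brown fat (median 0.16, all genes 0.0034, 27.6% of all genes called), 8 higher and 5 lower of 22 in epididymal fat (median 0.17, all genes -0.0035, 60.4% of all genes called) and 5 higher and 2 lower of 22 in inguinal fat (median 0.30, all genes -0.0099, 44.6% of all genes called). In the other organs there were 11 higher and 0 lower of 21 in gastrocnemius (median 0.63, all genes -0.028, 5.94% of all genes called), 7 higher and 0 lower of 20 in soleus (median 0.63, all genes -0.065, 3.88% of all genes called), 15 higher and 0 lower of 21 in liver (median 0.50, all genes 0.0068, 42% of all genes called) and 13 higher and 1 lower of 18 in small intestine (median 0.41, all genes 0.015, 38.9% of all genes called). In the 2 white depots, where Angptl4 rose, the lipid droplet gene Plin2 changed by 3.07 ± 0.22 (SE, adjusted p = 1.69e-21) in epididymal and 2.18 ± 0.21 (SE, adjusted p = 1.83e-13) in inguinal fat. Cpt1a, which admits fatty acids to mitochondria, changed by 1.31 ± 0.12 (SE, adjusted p = 1.11e-16) and 1.17 ± 0.16 (SE, adjusted p = 1.52e-08). Fgf21, a hormone gene, changed by 4.03 ± 0.77 (SE, adjusted p = 1.66e-05) in inguinal fat, and the thioesterase gene Acot2 by -1.13 ± 0.14 (SE, adjusted p = 1.72e-11) in epididymal fat. In small intestine Cyp4a10, a fatty acid hydroxylase, changed by 2.75 ± 0.18 (SE, adjusted p = 5.62e-22) and Acot1 by 2.23 ± 0.20 (SE, adjusted p = 2.38e-15), while Angptl4 was lower there (-0.77). Liver had Vnn1 at 2.96 ± 0.30 (SE, adjusted p = 3.18e-13), Plin2 at 1.35 ± 0.14 (SE, adjusted p = 7.14e-13) and the fatty acid dehydrogenase gene Acadm at 0.69 ± 0.080 (SE, adjusted p = 3.34e-11), beside -0.040 for Angptl4. In gastrocnemius Acadl changed by 0.88 ± 0.076 (SE, adjusted p = 2.55e-14), Hadhb by 0.96 ± 0.11 (SE, adjusted p = 5.96e-10) and Acadm by 0.76 ± 0.11 (SE, adjusted p = 1.67e-06), all enzymes of fatty acid oxidation. In soleus Hadhb changed by 1.12 ± 0.17 (SE, adjusted p = 6.84e-06), Acadl by 0.68 ± 0.14 (SE, adjusted p = 0.000790) and Acot2 by 0.95 ± 0.19 (SE, adjusted p = 0.000790). In brown fat Acot1 changed by -2.83 ± 0.36 (SE, adjusted p = 1.46e-09), the mitochondrial carrier gene Ucp3 by -1.28 ± 0.16 (SE, adjusted p = 1.89e-09) and Plin2 by 1.23 ± 0.16 (SE, adjusted p = 3.66e-09). Counts on these lists give no test of the list as a whole.

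The genes whose levels most resembled each member were listed by Pearson's r of log2 CPM over the 98 group means of 7 organs and 14 shared time points, a description in which the points of an organ share their tissue. For Lpl these were Hspa12b (r = 0.979), Reep5 (r = 0.977) and Slc27a1 (r = 0.977); Slc27a1 encodes a fatty acid transporter. For Gpihbp1 they were Apip (r = 0.977), Marchf2 (r = 0.975) and Fitm2 (r = 0.975). For Lmf1 they were Rgl3 (r = 0.949), Rbpms2 (r = 0.947) and Isoc2a (r = 0.945), and for Angptl4 Cd81 (r = 0.978), Arsb (r = 0.976) and Hacd2 (r = 0.976). Those of Angptl8 were Coasy (r = 0.967), Slc22a15 (r = 0.961) and Slc25a39 (r = 0.959), and for Lipc Tmprss6 (r = 0.997), AI182371 (r = 0.996) and Serpind1 (r = 0.996). Over the 96 libraries of epididymal fat, the genes nearest to Lpl were Col5a3 (r = 0.913), Hspa12a (r = 0.882) and Nid2 (r = 0.877). Those nearest to Gpihbp1 were Rgcc (r = 0.938), Npdc1 (r = 0.931) and Hrct1 (r = 0.927) and those nearest to Angptl4 Prnp (r = 0.874), Ttc13 (r = 0.801) and Prelp (r = 0.798). Over the 84 brown fat libraries Angptl8 was most like Mmp11 (r = 0.906), Chchd10 (r = 0.902) and Eif4ebp1 (r = 0.898) and Lmf1 most like Cidea (r = 0.892), Mrps18a (r = 0.884) and Echs1 (r = 0.877). Over the 84 liver libraries Lipc was most like Kat2b (r = 0.863), Ces2a (r = 0.838) and Sult2a8 (r = 0.829). Within one organ, libraries also share length balance, which correlated with Angptl8 and Lmf1 in brown fat at r = -0.868 and r = -0.795.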

How the data were processed

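Poly(A) RNA of each organ was made into strand-specific libraries, per the labels' protocols. The authors deposited raw read counts per gene. The submitters' processing notes name featureCounts 1.6.3, SAMtools 1.9, HISAT2 2.1.0, Trimmomatic 0.38 and FastQC 0.11.7, and the build GRCm38 (mm10). Neither the annotation nor the strand setting is given in the sources used here. Of the table's libraries, 600 from 7 organs were used and 504 from other organs were not used here. Counts were tested per organ with edgeR 4.0.16 (R 4.3.3; filterByExpr, TMM factors, quasi-likelihood, 1 coefficient per time point, Benjamini-Hochberg adjustment over all genes tested, threshold 0.05). limma 3.58.1 (voom) and DESeq2 1.42.0 served as alternatives, and the tests were checked on simulated counts. CPM used the scaled library totals. Permutation tests ran in NumPy 2.4.6, with ranks from SciPy 1.17.1. Depth was 8553245 to 27036098 reads per library. The closest pair of libraries within a time point still differed by a chi-square per degree of freedom of 3.01, so none was counted as a repeat. The members and gene lists were chosen with earlier results of these data known. All 6 members were named in every organ; of the pathway and PPAR lists the 3 genes with the smallest p per organ at 12 weeks, except some that are not reported here, and the 3 genes most like each member.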

Additional observations from a re-analysis of the deposited data

Results flagged for a closer look

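Sets of 6 mice were checked for each tested member and organ at 0 days, 1 day, 4 weeks, 12 weeks and 20 weeks. Among these 150 combinations of a member, an organ and a time point, 20 held a library far from the other 5. Its gap to its neighbour was above Dixon's critical value. Chance gives about 1 in 20 for a single combination. One library can be flagged for several members, as in brown fat at 4 weeks and soleus at 1 day, so the combinations are not independent. For Lpl these were the lowest of brown fat at 4 weeks (3014 CPM, the others 5153 to 6264), the lowest of inguinal fat at 0 days (2778 CPM, the others 5544 to 6807) and the lowest of soleus at 1 day (662 CPM, the others 1915 to 2415). For Gpihbp1 these were the highest of epididymal fat at 0 days (279.5 CPM, the others 195 to 215), the highest of soleus at 1 day (140.2 CPM, the others 50.9 to 57.8), the lowest of liver at 1 day (12.3 CPM, the others 15.3 to 16.8) and the highest of small intestine at 0 days (1.9 CPM, the others 0.289 to 0.877). For Lmf1 these were the highest of brown fat at 0 days (53.4 CPM, the others 37.2 to 42.7), the highest of soleus at 0 days (34.4 CPM, the others 9.53 to 18.1) and the highest of soleus at 1 day (29.8 CPM, the others 9.84 to 13.5). For Angptl4 these were the highest of brown fat at 4 weeks (846 CPM, the others 325 to 497), the highest of epididymal fat at 0 days (615 CPM, the others 477 to 506), the highest of gastrocnemius at 0 days (15.5 CPM, the others 5.23 to 7.07) and the highest of soleus at 0 days (66.7 CPM, the others 16.3 to 30.5). For Angptl8 these were the highest of brown fat at 4 weeks (43.0 CPM, the others 18.1 to 22.7), the highest of epididymal fat at 4 weeks (5.86 CPM, the others 2.55 to 3.56) and the highest of liver at 0 days (43.7 CPM, the others 7.63 to 16.5). For Lipc these were the highest of epididymal fat at 0 days (1.86 CPM, the others 0.0521 to 0.243), the highest of inguinal fat at 0 days (0.823 CPM, the others 0.0748 to 0.266) and the highest of inguinal fat at 1 day (0.518 CPM, the others 0.0623 to 0.227). Of these libraries, 11 values came from libraries of length balance under -0.5, in brown fat at 4 weeks, in both white depots at 0 days and in soleus at 0 days and 1 day; the others did not, and the part of length balance in them was not tested.

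The 12-week change itself differed in 8 combinations of a member and an organ pair by the interaction test in edgeR. Epididymal minus inguinal fat gave -2.27 ± 0.39 (SE, adjusted p = 1.02e-06) for Gpihbp1, -1.11 ± 0.32 (SE, adjusted p = 0.00322) for Lpl, -0.76 ± 0.24 (SE, adjusted p = 0.00730) for Angptl4 and -0.45 ± 0.18 (SE, adjusted p = 0.0363) for Lmf1. Epididymal minus brown fat gave -2.25 ± 0.23 (SE, adjusted p = 4.62e-15) for Gpihbp1, 1.11 ± 0.24 (SE, adjusted p = 8.36e-05) for Lpl and -0.49 ± 0.17 (SE, adjusted p = 0.0145) for Lmf1, and gastrocnemius minus soleus 2.23 ± 0.54 (SE, adjusted p = 0.0271) for Angptl4, all as log2 differences.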

How the results depend on the processing

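Results for single members and relations were set against all alternatives. Of these, 1321 were counted as the same, 60 passed where the main value did not, 42 no longer passed and 8 reversed. The same means the same side of the threshold. A change of direction was counted as reversed only where the main or the alternative value passed. For the 14 relations without the 2 libraries farthest from the median of Lpl no p was computed. They were counted as the same unless a called r changed sign. Of the counts of members, 231 stayed within 1.5 times, 16 moved, 11 passed newly and 4 no longer passed. The covariate of length balance, its removal, and the leaving out of libraries with low length balance were added after seeing the data. In brown fat 1 member was called at 1 day instead of 0 with voom, with the 2 groups alone, without each time point's least correlated library, with the length balance covariate and without low-balance libraries, and 1 instead of 2 at 4 weeks under the same alternatives except the covariate. In inguinal fat voom called 2 instead of 0 at 1 day and 5 instead of 3 over all times, and 1 instead of 2 was called at 4 weeks without the filter on low counts and with the replicate block. In gastrocnemius the covariate gave 2 instead of 1 at 4 weeks and 1 instead of 2 over all times; at 12 weeks 1 instead of 0 was called with the slope over log2(days + 1), voom, without the least correlated library and without low-balance libraries, and 2 with the 2 groups alone. In soleus at 12 weeks 0 instead of 1 was called with the slope, without the least correlated library and without low-balance libraries, and 2 with the covariate; over all times 2 instead of 1 varied with voom and without low-balance libraries, and 3 without the least correlated library and with the covariate. In liver the replicate block gave 2 instead of 1 at 1 day and 5 instead of 3 over all times (Angptl4 passed in both, with -0.51 (adjusted p = 0.0243) at 1 day and an adjusted p of 0.00391 over all times), and the 2 groups alone gave 0 at 1 day. The replicate numbers were not used to pair mice in the main fits. Correlations of same-numbered deviations passed 0.1 for 0 to 4 of 6 numbers per organ (0 in epididymal fat, 4 in soleus). They ranged from -0.608 to 0.841 in soleus. At most 4 of 6 numbers, in liver, fitted best with their own. With the block Angptl8 in liver also passed over all times (edgeR adjusted p = 0.0357, against 0.186 without it). What libraries of 1 number share in liver was not tested. The block changed no other count by over 1.5 times. Reversed were Angptl8 in epididymal fat (slope -0.0549 per doubling), Angptl8 at 2 weeks in brown fat without low-balance libraries (-0.00638), and Gpihbp1 at 4 weeks in gastrocnemius with the covariate (-0.261). With length balance removed, r of Lpl and Gpihbp1 became 0.0750 in brown fat, 0.513 in epididymal fat and 0.140 in gastrocnemius, and r of Lpl and Angptl4 0.0436 in gastrocnemius and 0.0992 in soleus; the causes were not tested. At 0 days the order of organs was the same without TMM factors, and with factors over all 42 libraries together 3 of 7 organs kept their rank for Lpl, 5 for Gpihbp1, 4 for Angptl4, 5 for Angptl8, 5 for Lipc and 2 for Lmf1. Values under about 1 CPM, as of Lipc outside liver and Angptl8 in muscle, are limited by depth.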
